A study of Arabidopsis thaliana with 12 samples.

Results

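Glutathione transferases (GSTs) are enzymes that join the tripeptide glutathione to electrophilic molecules, and some also reduce organic peroxides or carry small ligands. The conjugates are pumped into the vacuole, which makes the family part of the detoxification of herbicides, pollutants and reactive products of the plant's own metabolism. The tau (GSTU) and phi (GSTF) classes are the largest in plants, and several members are known for strong responses to pathogens, oxidative stress, hormones and xenobiotics. The genes described here were 38 GSTs of Arabidopsis thaliana, the 28 tau genes GSTU1 to GSTU28 and 10 phi genes (GSTF2, GSTF3 and GSTF7 to GSTF14), chosen by locus from the 32627 loci on the array and not by their values. RNA from leaves was hybridised to 12 single-colour expression arrays, 3 in each of 4 groups. All groups carried DEX-MKK4DD, a constitutively active MAP kinase kinase gene behind a promoter that dexamethasone (DEX) switches on, either in the wild type (Col) or in sid2, the sid2-2 mutant of the isochorismate synthase that makes most pathogen-induced salicylic acid (SA). Leaves of plants aged 4 weeks were infiltrated with 2 µM DEX or with 0.1% ethanol (mock) and collected after 24 h. The comparisons therefore address which genes change when the kinase cascade is switched on for a long time, and whether that needs SA made by SID2. DEX-treated plants lacking the transgene were not analysed here, so what DEX does by itself and what the kinase does cannot be told apart, and the number of independent transgenic lines is not given in the labels.

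The median intensity per array lay between 255 and 289, and the lower quartile of all loci lay at a log2 level of 4.15 to 4.196, which is taken below as the dim end of the scale. The number of arrays limits the precision, and p-values rest on a single spread per locus, pooled over the 4 groups of 3 arrays. That spread was drawn towards the spread of all loci. The methods describe the 3 arrays of a group as biological replicates from independent experiments. MKK4 itself was 1.92 higher in Col and 2.03 higher in sid2 after DEX on the log2 scale. SID2 (listed as EDS16) was at 10.36, 9.72 and 10.21 in Col mock and at 12.48, 6.08 and 12.26 in Col DEX, while the sid2 arrays lay between 6.002 and 6.26. The array labelled Col DEX replicate 2 thus went against its label. The main counts, and the Col values that cross a threshold without it, are given with and without it. Leaf markers moved with DEX too. The mean log2 level of 5 photosynthesis genes of the mesophyll was 13.31 to 13.51 in Col mock and 10.67 to 11.39 in Col DEX, 4 of the 5 being called lower in Col and 3 of 5 in sid2, and that of 2 epidermis genes was 8.14 to 9.22 in Col mock and 6.09 to 6.18 in Col DEX. In sid2 the mesophyll genes were at 13.32 to 13.42 in mock and 10.98 to 11.64 in DEX. The mean of 3 guard cell genes was 8.87 to 9.46 in Col mock and 7.80 to 8.34 in Col DEX, and that of 2 phloem genes was 13.30 to 13.81 over all groups. That mean joined 2 genes that moved in opposite directions. SUC2 rose by 0.52 in Col and 0.42 in sid2 and HA3 fell (-0.88 and -0.87), and neither was called. The mean of 5 root markers lay between 4.28 and 4.72 over all groups, near the dim end, and was 4.46 to 4.65 in Col mock and 4.28 to 4.35 in Col DEX. In each background 1 of the 5 was called lower, TIP2;3 in Col (-1.02) and CASP2 in sid2 (-1.11), beside 15% and 14.8% of all loci. SHV2 of the same list went the other way, by 0.77 in Col and 0.94 in sid2, and was not called. None of these lists was at 0, their part in the results below was not tested, and in a whole leaf fewer cells of a type and less RNA per cell cannot be told apart.

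DEX changed most of these GSTs in each background, in both directions, and the largest rises among the 38 were in the tau class. In Col 22 of the 38 genes were called (15 higher and 7 lower), that is 57.9%, where a call needs an adjusted p under 0.01 in limma and a change over 2-fold. In the same comparison 28.7% of all loci were called (13.8% higher and 15% lower). In sid2 23 of 38 were called (16 higher and 7 lower), or 60.5%, beside 27.8% of all loci (13% higher and 14.8% lower). The calls coincided in 21 genes, 15 higher and 6 lower in both backgrounds, which is 55.3% of the 38, beside 26.3% of all loci (12.2% higher and 14% lower). Mock and DEX arrays did not overlap for 30 of the 38 genes in Col and 30 in sid2, against 57.7% and 60.6% of all loci. The median of the absolute log2 change over the 38 genes was 2.71 in Col and 2.82 in sid2, where it was 0.48 and 0.46 over all loci. The signed median was 0.71 and 0.81 for the GSTs and 0.04 for all loci in each background. Among the 326 loci (1%) with the largest rise there were 9 of the 38 genes in Col (23.7%) and 8 in sid2 (21.1%), all of the tau class. The classes are small and unequal in number, and the 10 phi genes leave out GSTF4, GSTF5 and GSTF6. GSTF5 rose by 6.38 in Col and 5.998 in sid2, more than the tau gene GSTU1 (5.43 and 5.78). GSTF6 rose by 4.17 and 3.51, while GSTF4 was called lower in both backgrounds (-1.16 and -1.39). The contrast of the classes thus holds for the listed genes only. Of the 28 tau genes 13 were higher and 5 lower in each background, and of the 10 phi genes 2 were higher and 2 lower in Col and 3 higher and 2 lower in sid2. Leaving out the array labelled Col DEX replicate 2 again gave 22 called genes in Col (15 higher and 7 lower), with the call kept in 36 of 38 genes and no Col change moving by more than 0.23, beside 27.7% of all loci called.

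**Figure D1:**
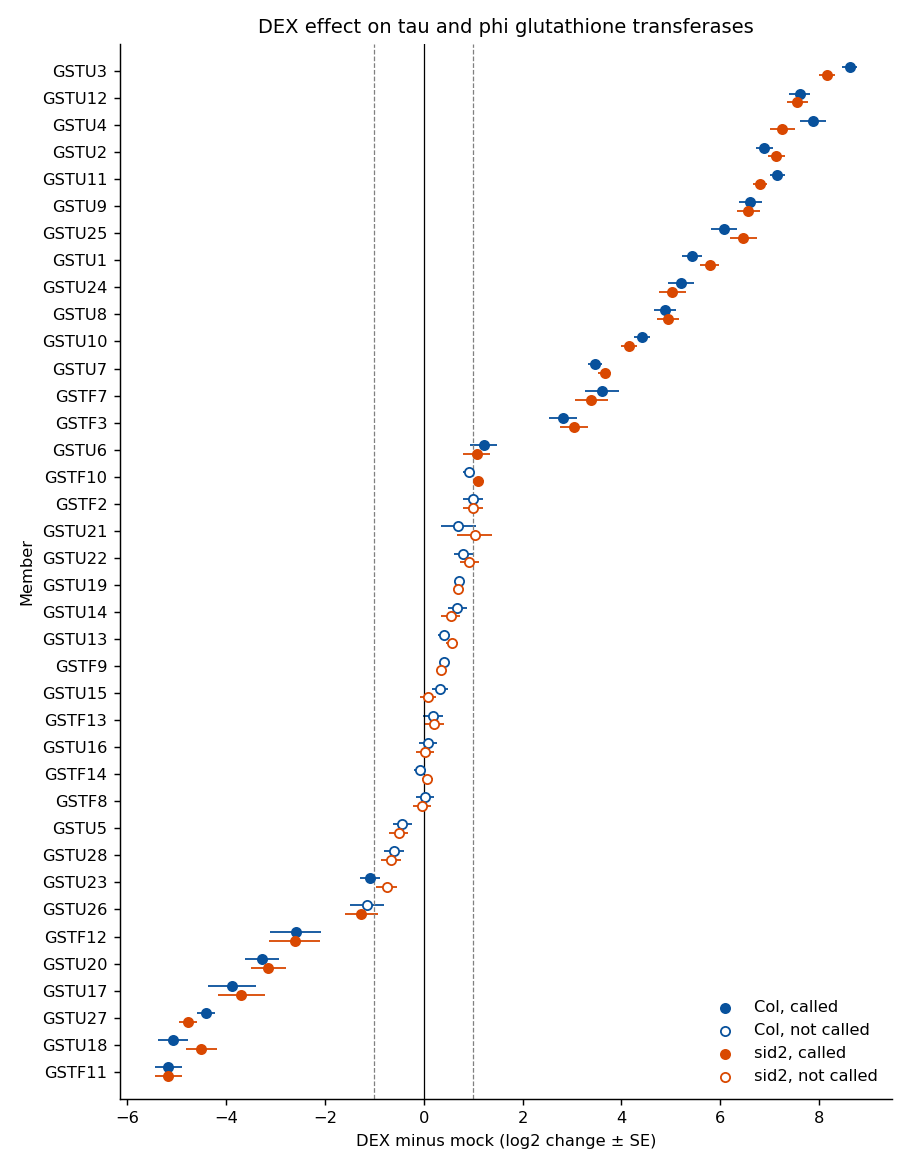
Change of each of the 38 GSTs after DEX (log2, DEX minus mock) in Col and in sid2, with bars for the SE. Filled points were called, open points were not, and dashed lines mark 2-fold. The changes run from -5.17 (GSTF11) to 8.62 (GSTU3), and the points of both backgrounds lie side by side.

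The 8 genes with the largest rise were all of the tau class, and 3 of them, GSTU2, GSTU3 and GSTU11, were near the dim end in mock leaves. GSTU3 (AT2G29470) had a log2 level of 3.74, 3.93 and 3.89 in Col mock, 12.21, 12.55 and 12.65 in Col DEX, 3.85, 3.98 and 4.07 in sid2 mock, and 11.67, 12.48 and 12.25 in sid2 DEX. Mock leaves were thus near the dim end on all 6 arrays and every DEX array was far above them. GSTU3 rose by 8.62 ± 0.16 in Col and 8.17 ± 0.16 in sid2 (log2, SE; adjusted p 1.52e-10 and 1.95e-10). Its neighbour GSTU4 (AT2G29460), which has been linked to the synthesis of the phytoalexin camalexin, had a level of 4.80, 4.59 and 5.55 in Col mock, 12.72, 12.95 and 12.93 in Col DEX, 5.96, 4.88 and 5.75 in sid2 mock, and 12.77, 12.82 and 12.77 in sid2 DEX. The mock arrays of GSTU4 were more spread than its DEX arrays, without overlap. It rose by 7.88 ± 0.26 in Col and 7.26 ± 0.26 in sid2 (adjusted p 1.46e-09 and 2.69e-09). GSTU2 (AT2G29480), on the other side of GSTU3, was at 4.14, 4.10 and 3.85 in Col mock, 10.69, 11.25 and 10.83 in Col DEX, 4.09, 4.36 and 3.75 in sid2 mock, and 10.90, 11.32 and 11.38 in sid2 DEX. It rose by 6.89 ± 0.18 in Col and 7.14 ± 0.18 in sid2 (adjusted p 4.01e-10 and 3.41e-10), and all 6 mock arrays were near the dim end. GSTU1 (AT2G29490), the last gene of this row, was not dim in mock leaves, with 6.77, 6.92 and 6.76 in Col mock, 12.04, 12.40 and 12.28 in Col DEX, 7.05, 6.40 and 6.14 in sid2 mock, and 12.14, 12.33 and 12.48 in sid2 DEX. It rose by 5.43 ± 0.20 in Col and 5.78 ± 0.20 in sid2 (adjusted p 3.00e-09 and 2.17e-09).

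A pair of adjacent genes on chromosome 1, GSTU11 and GSTU12, rose by similar amounts. GSTU12 (AT1G69920) was at 5.22, 4.99 and 5.17 in Col mock, 12.60, 12.90 and 12.70 in Col DEX, 5.77, 4.72 and 5.13 in sid2 mock, and 12.62, 12.86 and 12.81 in sid2 DEX. It rose by 7.61 ± 0.21 in Col and 7.56 ± 0.21 in sid2 (adjusted p 5.40e-10 and 6.40e-10). GSTU11 (AT1G69930) was at 4.14, 4.22 and 3.91 in Col mock, 11.27, 11.26 and 11.22 in Col DEX, 4.28, 4.74 and 4.22 in sid2 mock, and 11.30, 11.002 and 11.36 in sid2 DEX. The DEX arrays of GSTU11 were close together in Col, and it rose by 7.16 ± 0.15 in Col and 6.80 ± 0.15 in sid2 (adjusted p 1.77e-10 and 2.36e-10). GSTU9 (AT5G62480), which has no close neighbour among the 38, was at 5.04, 5.13 and 5.18 in Col mock, 11.36, 11.88 and 11.96 in Col DEX, 5.52, 4.66 and 5.26 in sid2 mock, and 11.35, 11.92 and 11.88 in sid2 DEX. It rose by 6.61 ± 0.23 in Col and 6.57 ± 0.23 in sid2 (adjusted p 1.89e-09 and 2.17e-09), with replicate 1 lowest among the DEX arrays in each background. GSTU25 is, with GSTU24, known from work on the detoxification of the explosive TNT. GSTU25 (AT1G17180) was at 5.56, 5.07 and 5.52 in Col mock, 10.93, 11.40 and 12.05 in Col DEX, 5.51, 5.07 and 5.29 in sid2 mock, and 11.25, 11.80 and 12.24 in sid2 DEX. Its DEX arrays had the same order in Col and sid2, with replicate 1 lowest and replicate 3 highest, and it rose by 6.07 ± 0.27 in Col and 6.47 ± 0.27 in sid2 (adjusted p 1.10e-08 and 7.56e-09). For genes this low in mock leaves the size of the rise depends on the handling of the dim end, so no fold is given. With 32 added to each intensity before the log, the rises of these 8 genes became 5.08 (GSTU1) to 6.94 (GSTU3) in Col and 5.36 (GSTU1) to 6.65 (GSTU12) in sid2, each still called.

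**Figure D2:**
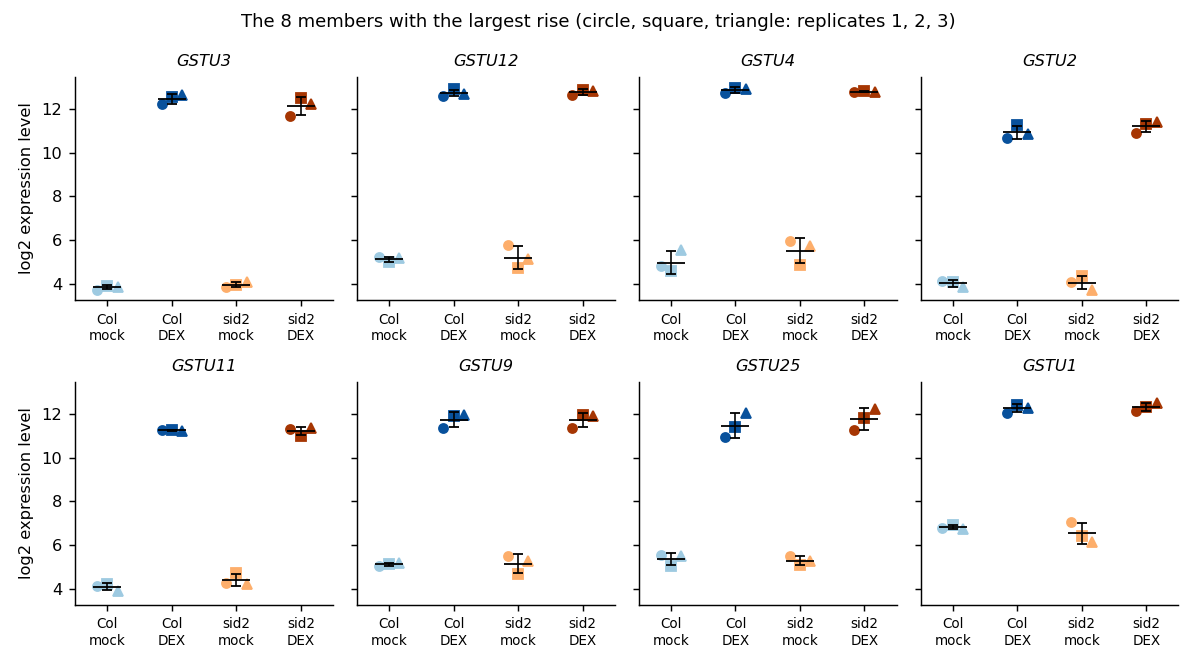
Log2 level on each array for the 8 GSTs with the largest mean rise, by group (circle, square and triangle are replicates 1, 2 and 3, with the mean and SD). No DEX array overlaps a mock array in any panel, and GSTU3 goes from 3.74 to 4.07 in mock leaves to 11.67 to 12.65 after DEX.

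Another 7 genes rose in both backgrounds. GSTU24 (AT1G17170) was at 7.75 to 8.97 on the 6 mock arrays and 13.27 to 13.55 on the 6 DEX arrays and rose by 5.22 ± 0.26 in Col and 5.03 ± 0.26 in sid2. GSTU8 (AT3G09270) was at 5.60 to 6.57 on the 6 mock arrays and 10.71 to 11.33 on the 6 DEX arrays and rose by 4.89 ± 0.22 in Col and 4.94 ± 0.22 in sid2. GSTU10 (AT1G74590), already well above the dim end in mock leaves, was at 9.06, 8.91 and 8.40 in Col mock, 13.10, 13.21 and 13.32 in Col DEX, 9.31, 9.28 and 9.02 in sid2 mock, and 13.19, 13.39 and 13.48 in sid2 DEX. Its DEX arrays were close together, and it rose by 4.42 ± 0.16 in Col and 4.15 ± 0.16 in sid2. GSTU7 (AT2G29420), at the far end of the chromosome 2 row, was at 9.12 to 9.72 on the 6 mock arrays and 12.73 to 13.16 on the 6 DEX arrays and rose by 3.47 ± 0.14 in Col and 3.66 ± 0.14 in sid2. GSTU6 (AT2G29440) had the smallest rise of the 15, with 7.47 to 8.87 on the 6 mock arrays and 8.41 to 9.38 on the 6 DEX arrays. It rose by 1.21 ± 0.27 in Col and 1.07 ± 0.27 in sid2 (adjusted p 0.00257 and 0.00572). GSTU6 lost its call in Col without the array labelled Col DEX replicate 2 (change 1.07, adjusted p 0.0133), and a fit with no replicate block lost it in both backgrounds (adjusted p 0.0114 and 0.0221). All 15 genes that rose in both backgrounds were higher in DEX than in mock in each of the 3 replicate pairs of each background. That follows from the lack of overlap between their mock and DEX arrays within each background and is no separate support. Of the 15 genes, 11 rose over 16-fold in Col and 11 in sid2, a size reached by 1.77% of all loci in each.

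Of the phi class, GSTF7 and GSTF3 rose. GSTF7 (AT1G02920), a gene known to respond to pathogens, was at 9.50, 11.16 and 10.60 in Col mock, 13.91, 14.07 and 14.10 in Col DEX, 11.27, 10.83 and 10.42 in sid2 mock, and 14.22, 14.07 and 14.41 in sid2 DEX. It rose by 3.61 ± 0.34 in Col and 3.39 ± 0.34 in sid2 (adjusted p 3.53e-06 and 6.20e-06). GSTF3 (AT2G02930) was at 9.02, 10.12 and 10.47 in Col mock, 12.48, 12.57 and 13.01 in Col DEX, 9.23, 9.74 and 10.24 in sid2 mock, and 12.85, 12.53 and 12.95 in sid2 DEX. It rose by 2.82 ± 0.29 in Col and 3.04 ± 0.29 in sid2 (adjusted p 7.79e-06 and 4.46e-06). In both genes the mock arrays were more spread than the DEX arrays in Col, with replicate 1 lowest. GSTF2 (AT4G02520), a close copy of GSTF3 whose protein binds camalexin and other small ligands, was already bright in mock leaves, at 13.16, 14.08 and 13.20 in Col mock, 14.53, 14.53 and 14.38 in Col DEX, 13.32, 13.60 and 12.94 in sid2 mock, and 14.26, 14.24 and 14.35 in sid2 DEX. Its change was 0.998 ± 0.21 in Col and 0.99 ± 0.21 in sid2 (log2, SE; adjusted p 0.00151 and 0.00161), just under the 2-fold limit. When the array labelled Col DEX replicate 2 was left out, GSTF2 in Col changed by 1.04 (adjusted p 0.00455), just over it, and with every array shifted to a common median it was 1.11 in Col and 1.10 in sid2, over the limit in both. GSTF10 (AT2G30870), first described as ERD13, an early gene of the response to dehydration, was at 12.85, 13.26 and 12.85 in Col mock, 13.96, 13.91 and 13.83 in Col DEX, 12.68, 12.96 and 12.71 in sid2 mock, and 13.94, 13.89 and 13.83 in sid2 DEX. All its DEX arrays were above all its mock arrays, by 0.91 ± 0.11 in Col (adjusted p 3.05e-05), which is under the 2-fold limit, and by 1.10 ± 0.11 in sid2 (adjusted p 6.99e-06), which is over it. The neighbour of GSTF10, GSTF9 (AT2G30860), differed by 0.41 ± 0.08 and 0.35 ± 0.08 (adjusted p 0.00122 and 0.00347). Whether probes of close copies such as GSTF2 and GSTF3, or of neighbouring genes, take up each other's RNA was not tested.

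There were 6 genes that fell in both backgrounds, and 3 of them belong to named pathways of secondary metabolism. GSTF11 has been assigned to the glutathione step of aliphatic glucosinolate synthesis, the route to the sulfur-rich defence compounds of the cabbage family. GSTF11 (AT3G03190) was at 9.65, 9.38 and 10.29 in Col mock, 5.21, 4.39 and 4.21 in Col DEX, 9.81, 9.47 and 10.08 in sid2 mock, and 4.53, 4.69 and 4.64 in sid2 DEX. The DEX arrays were near the dim end, and it fell by 5.17 ± 0.27 in Col and 5.17 ± 0.27 in sid2 (adjusted p 3.39e-08 and 3.72e-08). GSTU20 (AT1G78370), assigned to the same step and also known as a partner of the jasmonate-conjugating enzyme JAR1, was at 14.03, 13.96 and 14.17 in Col mock, 11.84, 10.61 and 9.89 in Col DEX, 14.09, 14.12 and 14.03 in sid2 mock, and 11.11, 11.25 and 10.45 in sid2 DEX. It fell by 3.27 ± 0.35 in Col and 3.15 ± 0.35 in sid2 (adjusted p 1.09e-05 and 1.55e-05). GSTU18 and GSTU17 stand next to each other on chromosome 1, and GSTU17 (ERD9) is known from drought and light signalling. GSTU18 (AT1G10360) was at 12.60, 12.27 and 12.60 in Col mock, 8.26, 7.004 and 6.98 in Col DEX, 12.36, 12.29 and 12.34 in sid2 mock, and 8.19, 8.12 and 7.17 in sid2 DEX. It fell by 5.08 ± 0.31 in Col and 4.50 ± 0.31 in sid2 (adjusted p 1.07e-07 and 2.96e-07). GSTU17 (AT1G10370) was at 13.37, 13.19 and 13.66 in Col mock, 10.30, 9.85 and 8.42 in Col DEX, 13.63, 13.24 and 13.67 in sid2 mock, and 10.51, 10.35 and 8.60 in sid2 DEX. It fell by 3.88 ± 0.48 in Col and 3.69 ± 0.48 in sid2 (adjusted p 3.20e-05 and 4.94e-05), with DEX replicate 3 in each background well below the other DEX arrays. In Col and in sid2 DEX replicate 3 was also the lowest DEX array for GSTU18 and GSTU20. GSTU27 (AT3G43800) was at 10.84, 10.51 and 10.77 in Col mock, 6.63, 5.88 and 6.38 in Col DEX, 10.68, 10.34 and 10.73 in sid2 mock, and 5.68, 6.02 and 5.73 in sid2 DEX. It fell by 4.41 ± 0.18 in Col and 4.77 ± 0.18 in sid2 (adjusted p 5.19e-09 and 3.42e-09).

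GSTF12 (AT5G17220) is TT19, the GST needed to bring anthocyanin pigments into the vacuole. It was at 6.67, 6.09 and 8.37 in Col mock, 4.51, 4.43 and 4.42 in Col DEX, 7.40, 5.64 and 7.57 in sid2 mock, and 4.24, 4.46 and 4.09 in sid2 DEX. The DEX arrays were all near the dim end, while the mock arrays were spread, with replicate 2 lowest in both backgrounds. GSTF12 fell by 2.59 ± 0.52 in Col and 2.61 ± 0.52 in sid2 (adjusted p 0.00117 and 0.00116), the least precise of the 6 falls. A test of its change against the 2-fold limit itself gave adjusted p 0.0297 in Col and 0.0290 in sid2, above 0.01. In all 6 genes the DEX array was below the mock array in each of the 3 pairs of each background, and all 6 fell over 4-fold. The agreement of the pairs follows from the lack of overlap between mock and DEX arrays and is no separate support. With 32 added to each intensity the falls of the genes that ended near the dim end were smaller, with changes of -3.99 in Col for GSTF11 and -1.65 for GSTF12, and both kept their call.

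**Figure D3:**
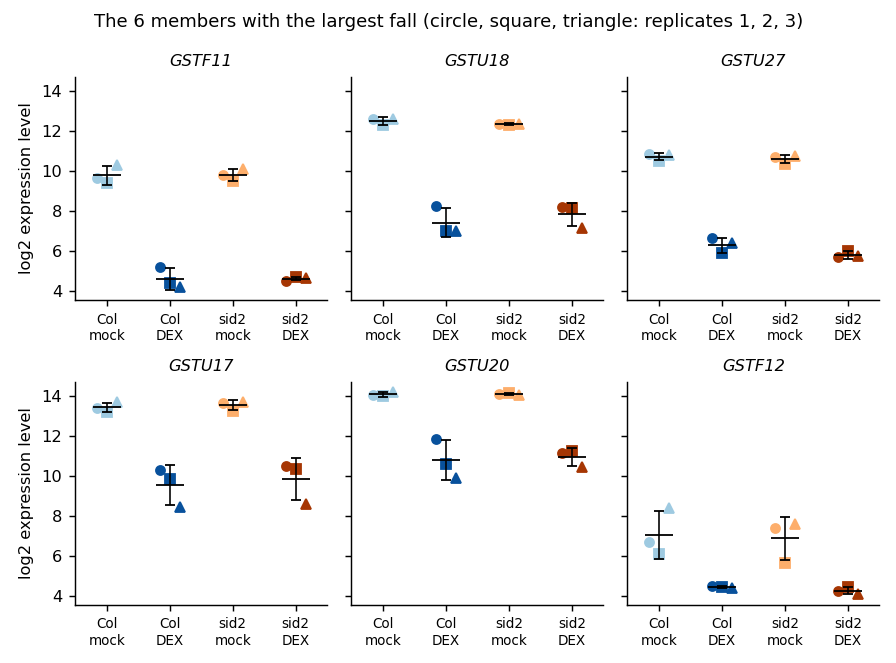
Log2 level on each array for the 6 GSTs with the largest mean fall, by group (circle, square and triangle are replicates 1, 2 and 3, with the mean and SD). Mock and DEX arrays do not overlap in any panel, and the mock arrays of GSTF12 spread from 5.64 to 8.37.

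The other 17 genes were called in 1 background or in none. GSTU23 (AT1G78320) was called lower in Col alone, with levels of 9.22, 8.73 and 9.45 in Col mock, 7.98, 8.38 and 7.80 in Col DEX, 9.02, 8.61 and 9.26 in sid2 mock, and 8.25, 8.08 and 8.31 in sid2 DEX. Its change was -1.08 ± 0.21 in Col, with adjusted p 8.94e-04, and -0.75 ± 0.21 in sid2, with adjusted p 0.00933, where it missed the fold limit. With every array shifted to a common median GSTU23 missed that limit in Col too (-0.98). Without the array labelled Col DEX replicate 2 its Col change was -1.32 (adjusted p 2.08e-04). GSTU26 (AT1G17190) was called lower in sid2 alone, with levels of 8.48, 8.16 and 8.92 in Col mock, 7.61, 7.72 and 6.81 in Col DEX, 8.56, 8.27 and 8.57 in sid2 mock, and 7.48, 7.77 and 6.37 in sid2 DEX. Its change was -1.14 ± 0.34 in Col and -1.26 ± 0.34 in sid2, with adjusted p 0.0135 and 0.00797. DEX replicate 3 was the lowest array of GSTU26 in each background, and without it in sid2 the change was -0.85 (adjusted p 0.0324). With GSTF10, 3 genes were thus called in 1 background, and for none of them did the test of the difference between backgrounds pass. The remaining 14 genes were called in neither. Of these, 4 passed the adjusted p in both backgrounds but not the fold limit, namely GSTU19, GSTU22, GSTF2 and GSTF9. GSTU19 (AT1G78380), an enzyme abundant in Arabidopsis and active on many substrates, was at 13.23 to 13.42 on the 6 mock arrays and 13.96 to 14.19 on the 6 DEX arrays, a difference of 0.72 ± 0.08 in Col and 0.70 ± 0.08 in sid2 (adjusted p 1.36e-05 and 1.94e-05). GSTU22 differed by 0.80 ± 0.19 and 0.93 ± 0.19 (adjusted p 0.00346 and 0.00140). GSTU22 was near the dim end, at 3.68 to 3.84 on the 6 mock arrays and 4.14 to 4.93 on the 6 DEX arrays. The size of its change thus depends on the handling of that end. With the offset added to each intensity before the log, its change was 0.30 in Col and 0.35 in sid2. GSTU14 (0.68 ± 0.18 in Col, adjusted p 0.00816) and GSTU13 (0.56 ± 0.12 in sid2, adjusted p 0.00232) passed the adjusted p in 1 background. Without the array labelled Col DEX replicate 2, GSTU22 (0.66, adjusted p 0.0189) and GSTU14 (0.65, adjusted p 0.0279) did not pass in Col. GSTU13 is known for its part in the pathogen response that starts from indole glucosinolates. In 8 genes neither background passed the adjusted p. GSTU21 differed by 0.70 ± 0.35 and 1.03 ± 0.35 (adjusted p 0.113 and 0.0270), GSTU28 by -0.60 ± 0.20 and -0.65 ± 0.20 (adjusted p 0.0260 and 0.0178), and GSTU5 (AT2G29450) by -0.43 ± 0.20 and -0.51 ± 0.20 (adjusted p 0.0826 and 0.0458). GSTF8 (AT2G47730), whose promoter is a common marker of early stress responses, was at 13.12, 13.14 and 13.28 in Col mock, 13.45, 12.70 and 13.48 in Col DEX, 13.17, 13.14 and 13.15 in sid2 mock, and 13.34, 12.72 and 13.30 in sid2 DEX. Mock and DEX arrays of GSTF8 overlapped in each background, DEX replicate 2 being the lowest array in both, with a difference of 0.03 ± 0.18 in Col and -0.03 ± 0.18 in sid2 (95% interval -0.38 to 0.43 and -0.44 to 0.37). The Col difference was 0.25 (adjusted p 0.228) when the array labelled Col DEX replicate 2 was left out, and the sign turned in Col after quantile normalization and in sid2 with a common median. GSTU15, GSTU16, GSTF13 and GSTF14 differed by at most 0.33 in either background, and GSTF14 turned its sign in Col with a common median. GSTU15, GSTF13 and GSTF14 were near the dim end in all groups, so a change of these was not detectable where it stayed below that level.

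Many of the genes stand in rows on the chromosomes, with at most 4 annotated genes between members, which gave 17 neighbouring pairs and placed 25 of the 38 in such rows. The row GSTU7, GSTU6, GSTU5, GSTU4, GSTU3, GSTU2 and GSTU1 on chromosome 2 had 6 of 7 genes higher in both backgrounds, beside 12.2% of all loci. GSTU5 alone did not follow its neighbours, with -0.43 in Col between 1.21 for GSTU6 and 7.88 for GSTU4. The row GSTU23, GSTU22, GSTU21, GSTU20 and GSTU19 on chromosome 1 had 1 of 5 lower in both, GSTU20, beside 14% of all loci. None of the 5 was higher in both, beside 12.2%. In a row of 5 these counts are near the shares of all loci and give the row no direction. GSTU20 differed by -3.27 in Col while the genes directly on either side of it, GSTU21 and GSTU19, differed by 0.70 and 0.72. In the row GSTU24, GSTU25 and GSTU26 the first and second genes rose (5.22 and 6.07 in Col) and the third, with no annotated gene between it and GSTU25, differed by -1.14. The pairs GSTU18 and GSTU17 (both lower) and GSTU12 and GSTU11 (both higher) moved together. GSTU13 with GSTU14, GSTU15 with GSTU16 and GSTF9 with GSTF10 each changed by less than 2-fold in Col.

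**Figure D4:**
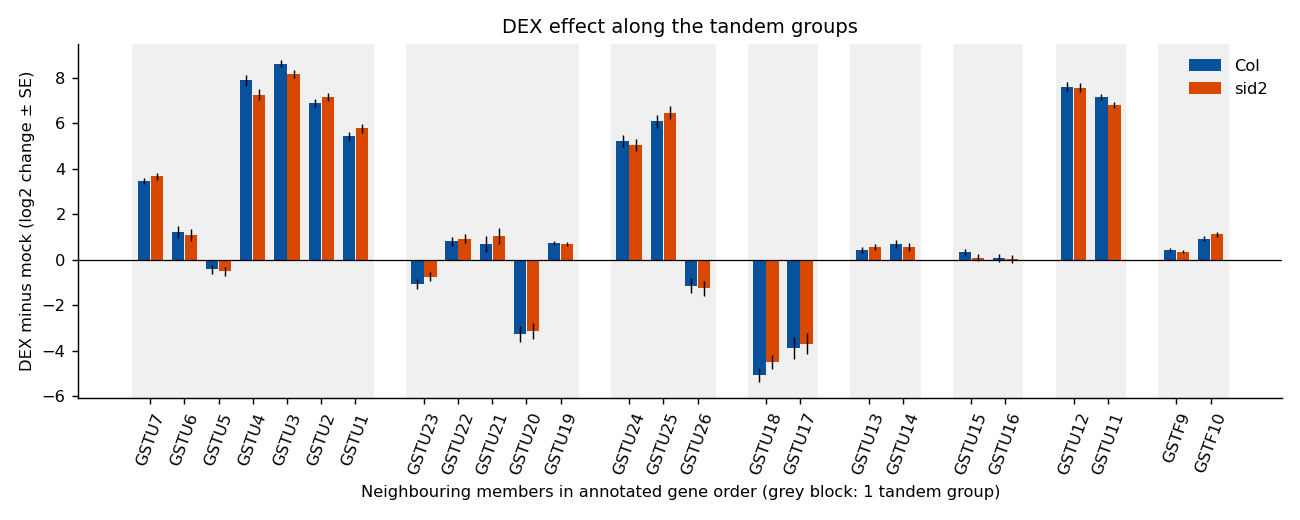
Change after DEX (log2, DEX minus mock) of the GSTs that stand in rows, in the order of the genes along the chromosome, in Col and sid2, with bars for the SE. GSTU5 and GSTU20 differ in direction from the genes beside them, as do GSTU26 and GSTU25.

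No difference in the DEX response of these genes between sid2 and Col passed the test. The difference between the DEX effects of sid2 and Col (the interaction) ran from -0.62 to 0.58 on the log2 scale over the 38 genes, and 36 of them were under 0.5 in size. None was called in limma, as none of all loci was (0%), and 0 of 38 had an unadjusted p under 0.05, beside 2.25% of all loci. Testing against the 2-fold limit also called none. The 95% interval stayed within 1 on the log2 scale for 27 of 38 genes, and over all 38 the bounds reached -1.63 and 1.68, so for 11 genes the interval was wider than that. The 3 genes with the smallest p were GSTU3, with a difference of -0.45 ± 0.22, GSTU11, with -0.36 ± 0.21, and GSTU4, with -0.62 ± 0.37 (SE; adjusted p 1 each). In each of them the rise was smaller in sid2 in 3 of 3 replicate pairs. They were picked by p from the same arrays, so this agreement adds no support. For GSTU11 the pairs differed by -0.12, -0.78 and -0.17, the second holding the array labelled Col DEX replicate 2. Without that array the differences were -0.44 for GSTU3, -0.37 for GSTU11 and -0.50 for GSTU4. The interaction then ran from -0.55 to 0.56 over the 38 genes, highest in GSTU23 (unadjusted p 0.0505). Only GSTU27 had an unadjusted p under 0.05 (difference -0.55, adjusted p 0.9996), beside 2.92% of all loci. None of the 38 was called, beside 3 loci in all.

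No GST was called between the backgrounds at the same treatment. Between sid2 and Col mock leaves 0 of 38 were called in limma, beside 0.00306% of all loci, and 2 (5.26%) had an unadjusted p under 0.05, beside 6.95% of all loci, so their number was not above the background. These were GSTU10, higher in sid2 by 0.41 ± 0.16 (adjusted p 0.687), and GSTU11, higher by 0.32 ± 0.15 (adjusted p 0.717), each in 3 of 3 pairs. GSTU4 came next, with 0.54 ± 0.26 in 3 of 3 pairs (adjusted p 0.719). These genes were picked by p from the same arrays, so the agreement of their pairs adds no support. Groups did not overlap for 2 genes, GSTU13 and GSTU19, against 10.2% of all loci. Between sid2 and Col DEX leaves 0 of 38 were called, beside 0% of all loci, and 1 (2.63%) had an unadjusted p under 0.05, beside 5.77% of all loci. That was GSTU27, with a difference of -0.48 ± 0.18, lower in sid2 in 2 of 3 pairs (adjusted p 0.797). GSTF2 and GSTU24 did not overlap between these groups, against 10.8% of all loci. The array labelled Col DEX replicate 2 entered this comparison and belongs to the pair where GSTU27 was not lower in sid2. When that array was left out, 0 of 38 were called, beside 0.116% of all loci (38 loci, where 0 were called with it), and GSTU27 alone had an unadjusted p under 0.05, beside 6.11% of all loci. The difference of GSTU27 was then -0.67 ± 0.17 (adjusted p 0.281). Groups then did not overlap for 6 genes, GSTU2, GSTU23, GSTU24, GSTU27, GSTF2 and GSTF8, against 21.2% of all loci.

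Genes of related steps were counted beside the GSTs. For comparison, 13.8% of all loci were called higher and 15% lower in Col, and 13% and 14.8% in sid2. Of 15 other GST genes, among them 3 further phi genes, 5 were higher and 4 lower in Col and 6 higher and 4 lower in sid2. GSTL1, of the lambda class, rose by 8.15 and 7.83, and the phi genes GSTF5 and GSTF6, the latter a close copy of GSTF7 used in camalexin synthesis, rose by 6.38 and 5.998 and by 4.17 and 3.51. GSTF4, also of the phi class, was called lower (-1.16 and -1.39). DHAR3, a dehydroascorbate reductase of the chloroplast that recycles vitamin C with glutathione, fell (-2.26 and -2.37). Of the related genes, DHAR1 also fell (-1.88 and -1.68), while DHAR2 rose (2.20 and 2.21). Of 13 genes of glutathione synthesis, breakdown and conjugate transport, 4 were higher and none lower in Col, and 3 higher and none lower in sid2. GSH2, the last enzyme of glutathione synthesis, rose by 1.28 and 1.13, GGT4, which opens the breakdown of conjugates in the vacuole, by 1.77 and 1.86, and the conjugate pump gene ABCC3 by 1.55 and 1.47. ABCC2 was 1.15 higher in Col and, not called, 0.998 higher in sid2. Of 11 genes of the xenobiotic response and TGA factors, 5 were higher in Col and 3 in sid2 and none was lower. CYP81D8 (3.996 and 3.88) and UGT74E2 (3.91 and 4.08), both common markers of that response, rose the most, followed by OPR1 (1.11 and 1.18). CYP81D11 of the same list changed by less than 2-fold and was not called. Its mean level was 8.40 in Col mock, 9.07 in Col DEX, 8.92 in sid2 mock and 9.48 in sid2 DEX. TGA1 was higher by 1.03 in Col and, not called, by 0.78 in sid2.

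Camalexin genes were higher in 4 of 6 and lower in 1 of 6 in each background. PAD3, the last enzyme of the route, rose by 6.01 and 5.11, CYP71A13 by 5.95 and 4.79, WRKY33, a regulator of both, by 2.11 and 2.52, and CYP79B2 by 1.78 and 1.64. The mock arrays of PAD3 were widely spread, at 6.88 to 9.71 in Col and 6.74 to 10.54 in sid2. Those of CYP71A13 lay between 6.70 and 9.83, so the size of both rises is imprecise. The gene that fell, named after its value was seen, was CYP79B3, which shares its step with CYP79B2 (-1.26 and -1.15). Of 8 aliphatic glucosinolate genes 6 were lower and none higher in each background, with a median change of -2.92 in Col and -2.87 in sid2. The largest falls were those of CYP79F1 (-5.01 and -4.66), CYP83A1 (-4.18 and -3.68), the regulator MYB28 (-3.97 and -3.38) and MAM1 (-3.35 and -3.45). GSTF11 and GSTU20, assigned to the same route, differed by -5.17 and -3.27 in Col. Of 9 anthocyanin genes 5 were lower and none higher in each background, with a median of -1.54 in Col and -1.39 in sid2. TT4, chalcone synthase (-6.41 and -6.04), TT5, the next enzyme (-2.49 and -2.12), and the glucosyltransferase gene AT4G14090 (-1.97 and -1.84) fell. The regulator PAP1, not called, differed by -2.16 and -1.26. No list was tested as a set. The share of all loci called was 13.8% higher and 15% lower in Col and 13% higher and 14.8% lower in sid2, as above.

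**Figure D5:**
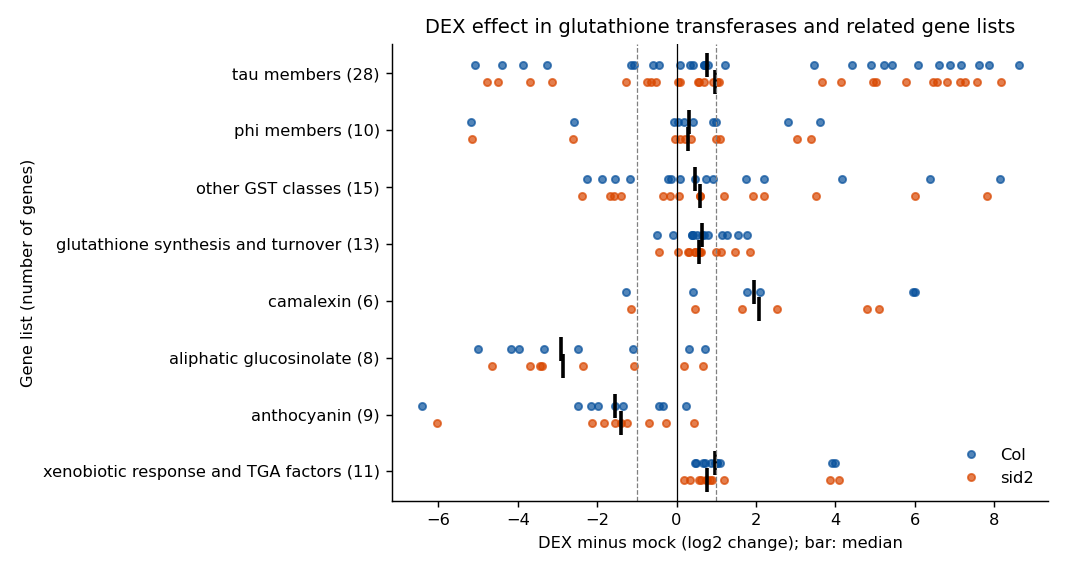
Change after DEX (log2, DEX minus mock) of every gene in the GST classes and in 6 lists of related genes, in Col and sid2, with a short bar for the median and dashed lines at 2-fold. The aliphatic glucosinolate and anthocyanin genes that were called all lie below 0, and the tau genes spread from -5.08 to 8.62 in Col.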

How the data were processed

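Total RNA from leaves was labelled with Cy3 and hybridised to NimbleGen arrays with TAIR9 gene models. The authors summarised probes by robust multi-array averaging (RMA) and deposited 1 linear intensity per locus and array, with no missing values. These intensities were turned into log2 levels and not scaled again. Aligner and caller settings do not apply, and probe sequences were not analysed here. Groups were taken from the labels, and all 12 arrays entered 1 model of 4 group means in limma 3.58.1 (R 4.3.3, statmod 1.5.0), with the replicate number as a random block (consensus correlation 0.208, as in the mixed model of the methods). P-values were adjusted over all 32627 loci by Benjamini-Hochberg, and a locus was called at an adjusted p under 0.01 and a change over 2-fold. The tests were the DEX effect in each background, their difference, and sid2 against Col in mock and in DEX. Same-numbered arrays deviated together from their group means (correlations 0.100 to 0.733, the lowest between sid2 mock and sid2 DEX), and the numbers were read as pairs. The script was tested on simulated data.

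The family and the gene lists were picked for study with earlier results of these data known, while membership follows the locus list and no measured value. Values of every array are given for the 8 largest rises, the 6 largest falls, members called in 1 background, and the 3 with the smallest p of the interaction and of sid2 in mock, and from each list at most 4 genes with the largest change. Arrays of GSTF2, GSTF3, GSTF7 and GSTF8 are printed besides, chosen after their values were seen. GSTF4, DHAR1, DHAR2, CYP79B3 and CYP81D11 were also named after their values were seen. Names come from the RefSeq gene table of TAIR10.1, which matched all 38 members and 31993 of the 32627 loci (98.1%). Since that build differs from the array's, it served only for names and gene order. Protein identity between members was not computed. The alternatives were no replicate block, the block as a fixed term, a common median, quantile normalization, leaving out loci with a mean log2 level under 5, an offset of 32, a test against 2-fold, array weights, a 4-fold limit, and leaving out each array.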

Additional observations from a re-analysis of the deposited data

How the results depend on the processing

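Over 21 alternatives (12 that left out 1 array each and 9 others) the number of GSTs called stayed within 1.5 times of 22 in Col and 23 in sid2. It ran from 19 to 23 in Col and from 19 to 24 in sid2, lowest in both with the test against 2-fold, and from 21 to 23 in each when 1 array was left out. The interaction and both comparisons of sid2 with Col gave 0 of the 38 in every setting, though without Col DEX replicate 2 sid2 against Col in DEX called 38 of all loci and the interaction 3, where both had 0. With no replicate block 21 were called in each background, and with the replicate block as a fixed term 22 and 23. A common median shifted the median of all loci from 0.04 to 0.15 in Col and 0.14 in sid2 and gave 17 higher and 6 lower in Col and 18 higher and 6 lower in sid2. Over all loci, the calls fell from 9372 to 5328 with the test against 2-fold and 4485 with the 4-fold limit in Col, and from 9081 to 5091 and 4303 in sid2.

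For 25 of the 38 genes call and direction were the same in both backgrounds in every alternative that tested them. Calls were lost in some setting for 5 genes. GSTU6 lost its call in 6 settings in Col and 9 in sid2, GSTU23 in 7 in Col, GSTU26 in 14 in sid2, GSTF10 in 2 in sid2, and GSTF12 in 1 in each, the test against 2-fold. Calls were gained for 5 genes, GSTF2 in 4 settings in each background, GSTF10 in 2 and GSTU26 in 2 in Col, GSTU22 in 1 in Col and 3 in sid2, and GSTU21 in 3 in sid2. GSTF10 and GSTU26 thus lost a call in one background and gained one in the other. The sign turned for 5 genes that were called in no setting. GSTF8 was at -0.0024 in Col after quantile normalization and at 0.070 in sid2 with a common median, where GSTF14 was at 0.033 in Col. When 1 array was left out, the change ran from -0.086 to 0.25 in Col and -0.13 to 0.12 in sid2 for GSTF8, from -0.052 to 0.28 and -0.075 to 0.12 for GSTU16, from -0.20 to 0.073 in Col for GSTF14, from -0.043 to 0.21 in sid2 for GSTU15 and from -0.081 to 0.40 in sid2 for GSTF13. The dim end of the scale limits the folds of genes near a log2 level of 4.15 to 4.196.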
